A study of Rattus norvegicus with 28 samples.

Results

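Microglia and macrophages are the myeloid cells of the brain, and 10 genes that mark them were followed through the hippocampus of injured rats: Itgam, Aif1, Cd14, Msr1, Tyrobp, Trem2, Csf1r, P2ry12, Cx3cr1 and Ptprc. They were chosen by name as genes of these cells, with earlier results of these data known. All 10 of them, out of 15637 named genes, were on the array, by 13 of its 30367 probes, and all 13 probes were among the 17322 kept after dim probes were removed. Aif1, Csf1r and Ptprc had 2 probes each. In counts, the brighter probe stood for the gene and the other one is given beside it.

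Whole hippocampus was taken 24 h after surgery from adult male Sprague-Dawley rats and hybridized to 14 gene expression arrays, 1 per sample, in 5 groups. Sham rats (n = 2) had surgery without injury, and TBI rats (n = 3) had a severe fluid percussion brain injury with no drug. The other 3 groups (n = 3 each) had the same injury and then received, 1 h after it, 1 of 3 antidepressants at the same dose: TBI+Imipramine, a tricyclic, and TBI+Prozac (fluoxetine) and TBI+Zoloft (sertraline), both selective serotonin reuptake inhibitors. The labels give no uninjured group with a drug, and they do not say which rats received vehicle, so the drugs could be compared only among injured rats. In the whole tissue, more cells of a type and more RNA per cell cannot be told apart.

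Microglia settle in the brain before birth and survey it through receptors for nucleotides (P2ry12), for the neuronal chemokine fractalkine (Cx3cr1) and for their own growth factors Csf1 and Il34 (Csf1r). After an injury they and macrophages that enter from blood use integrins (Itgam), pattern recognition and scavenger receptors (Cd14, Msr1) and phagocytic receptors such as Trem2, which signals through the adaptor Tyrobp. Ptprc (CD45) is carried by all nucleated blood cells and at a lower level by microglia. Several of these genes are therefore not limited to microglia, and Itgam, Cd14, Tyrobp and Ptprc are also used by neutrophils and monocytes.

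The transcription factor PU.1, the product of Spi1, drives the myeloid lineage and binds purine-rich sites. Promoters of 6 of the 10 genes (Itgam, Cd14, Trem2, Csf1r, Cx3cr1 and Ptprc) were matched by symbol in RefSeq sequence of the GRCr8 rat build. The letters GAGGAA (which read as TTCCTC when the match lies on the opposite strand) occurred within the 250 bases before the start site in 5 of these 6 promoters, the exception being Cx3cr1. They occurred in 23.3% of 33469 rat promoters of the same length. The overlapping letters GGAAGT (which read as ACTTCC on the opposite strand) occurred in 1 of the 6, Ptprc, and in 19.2% of all promoters. The promoters of Itgam and Ptprc, which were higher after injury, and of Trem2, which did not pass the test, are given as examples, 5′ to 3′, with each GAGGAA match in capitals.
Itgam, chr1:192089342-192089591, + strand: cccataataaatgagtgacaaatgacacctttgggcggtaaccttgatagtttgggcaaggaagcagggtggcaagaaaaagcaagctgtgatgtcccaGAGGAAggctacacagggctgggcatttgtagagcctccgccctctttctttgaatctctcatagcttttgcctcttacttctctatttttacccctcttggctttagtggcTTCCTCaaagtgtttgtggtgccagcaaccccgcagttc
Ptprc, chr13:52259747-52259996, - strand: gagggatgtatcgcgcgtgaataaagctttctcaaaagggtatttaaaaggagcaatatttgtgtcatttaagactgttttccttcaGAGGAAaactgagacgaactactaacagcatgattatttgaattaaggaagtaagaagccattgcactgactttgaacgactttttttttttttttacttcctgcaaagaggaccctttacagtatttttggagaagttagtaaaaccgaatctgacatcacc
Trem2, chr9:20151780-20152029, - strand: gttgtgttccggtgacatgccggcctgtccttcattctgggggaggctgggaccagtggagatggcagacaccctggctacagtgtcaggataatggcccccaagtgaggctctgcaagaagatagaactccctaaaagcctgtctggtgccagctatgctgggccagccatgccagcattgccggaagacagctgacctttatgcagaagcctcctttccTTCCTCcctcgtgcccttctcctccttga
Itgam held a match 151 bases upstream on its own strand and another 39 bases upstream on the opposite strand. Ptprc held 1 match 163 bases upstream and Trem2 held 1 on the opposite strand 29 bases upstream. A match describes the letters in the window and not binding of the factor.

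Before the results, 3 properties of the arrays bear on them. The 3 TBI arrays and TBI+Prozac replicate 1 lay on 1 slide, the other 8 drug arrays on another, and both Sham arrays alone on a slide of their own that was scanned on another day. Slide and injury therefore cannot be told apart in any comparison with Sham. Between 14676 and 18196 probes were above background per array, with the lowest number on TBI replicate 1 and the highest on TBI+Imipramine replicate 2, and no spot was saturated. Values are log2 signals, each array being scaled to the 75th percentile of those of its own probes that exceeded background, so a value of 0 is as bright as that percentile. Levels of different probes are not set against each other, apart from their weight in sums over a list of genes. Markers of neurons, astrocytes and oligodendrocytes were present in every group, with 6 of the 7 neuronal genes that had a probe kept (Prox1 was not).

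**Figure D1:**
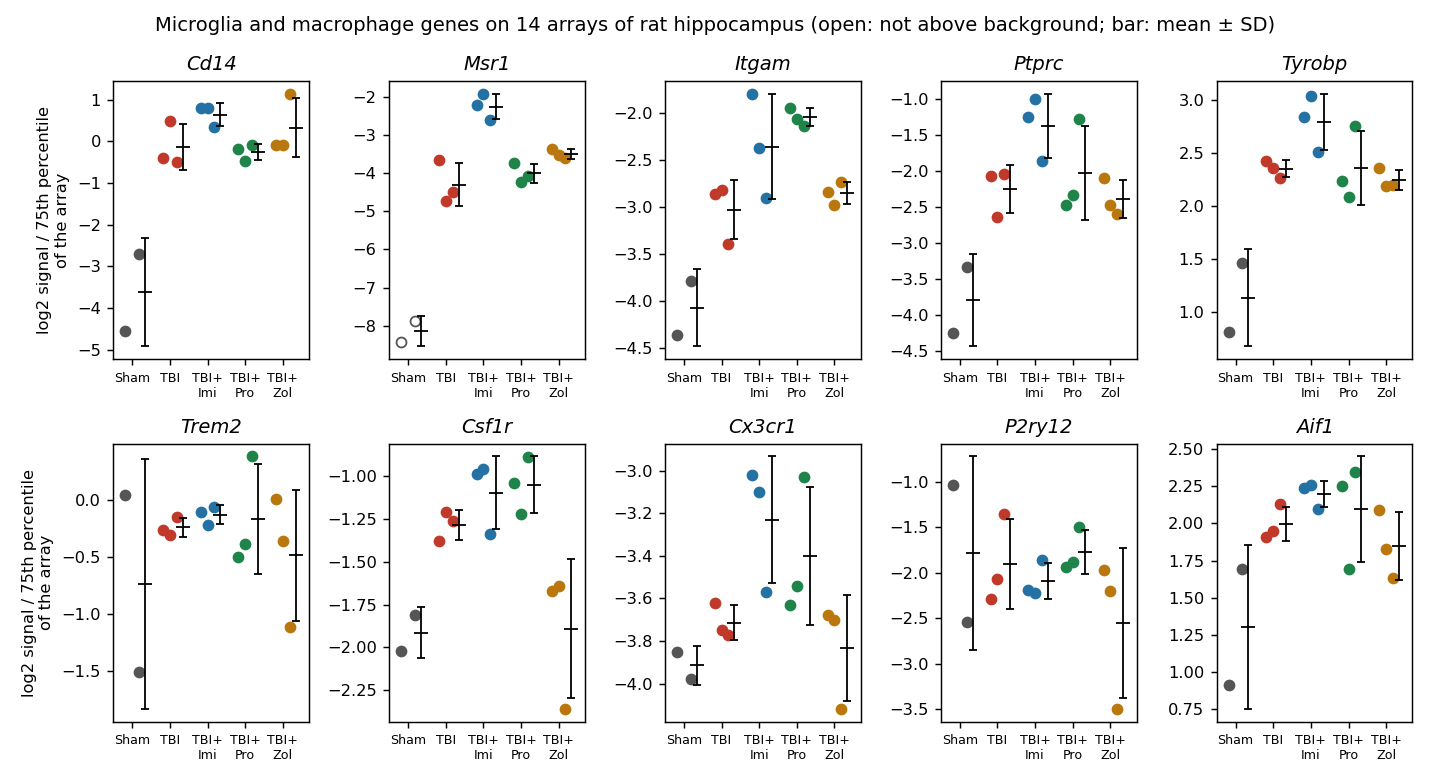
Log2 signal relative to the array's 75th percentile (vertical axis, a separate scale for each gene) of the 10 genes on the 14 arrays, by group (Imi, imipramine; Pro, Prozac; Zol, Zoloft). Each point is 1 rat, open where the probe was not above background, and bars give the mean ± SD; all 12 injured rats lie above both Sham rats for Cd14, Msr1, Itgam, Ptprc and Tyrobp.

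The first question was what injury alone did to these genes. In TBI against Sham, 5 of the 10 genes were higher and none was lower: Msr1, Cd14, Ptprc, Tyrobp and Itgam. Of all probes tested, 8.3% were higher and 8.32% were lower, 16.6% in all (limma, Benjamini-Hochberg adjusted p under 0.05). Groups did not overlap in 8 of the 10 genes and in 42.3% of all probes. The median log2 difference was 0.87 over the 10 genes and 0.0015 over all probes. Leaving out Sham replicate 1 cut the number of genes called from 5 to 2 (Msr1 and Cd14).

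Msr1 encodes a scavenger receptor of macrophages that takes up modified lipoproteins and debris. Its probe read -8.42 and -7.86 in the 2 Sham rats, not well above background in either, and -3.67, -4.74 and -4.50 in the 3 TBI rats. The injured rats were far above the Sham rats and the groups did not overlap. Since Sham gave only a limit, the level after TBI was at least 4.15-fold higher (limma adjusted p = 3.4e-05). That bound sets the mean of the TBI arrays against the dimmest signal that counted as above background on each Sham array. The size depends on the background correction, since the measured difference was 3.84 (log2) here and 0.92 with normexp (adjusted p = 0.0095), which is below that bound.

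Cd14, the co-receptor through which Toll-like receptor 4 senses bacterial lipopolysaccharide and products of damaged tissue, read -4.54 and -2.71 in Sham and -0.41, 0.49 and -0.50 after TBI. The Sham rats differed from each other by 1.84, yet both lay below every TBI rat. The difference was 3.49 ± 0.50 (log2, SE), or 11.2-fold (adjusted p = 0.00097, limma). It was 5.93-fold without Sham replicate 1, 21.2-fold without Sham replicate 2 and 2.86 on the log2 scale with normexp, and passed the test in each case.

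Itgam encodes CD11b, the alpha chain of complement receptor 3. It read -4.36 and -3.78 in Sham and -2.86, -2.82 and -3.39 after TBI. The groups did not overlap, and TBI was higher by 1.05 ± 0.28 (log2, SE; limma adjusted p = 0.025). This call was not kept without Sham replicate 1 (0.76, adjusted p = 0.21), without TBI replicate 1 (0.97, 0.059) or without TBI replicate 2 (0.95, 0.080), and with another background correction the difference was 0.46 (adjusted p = 0.13).

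Tyrobp encodes DAP12, the adaptor that passes on signals from Trem2 and other receptors without signalling tails of their own. It read 0.81 and 1.46 in Sham and 2.43, 2.36 and 2.27 after TBI. The 3 TBI rats lay within 0.15 of each other, and the difference from Sham was 1.22 ± 0.23 (log2, SE; limma adjusted p = 0.0045). Without Sham replicate 1 it was 0.90 (adjusted p = 0.063).

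Ptprc encodes CD45, a phosphatase that sets the threshold of antigen receptor signalling. It read -4.25 and -3.34 in Sham and -2.07, -2.64 and -2.05 after TBI, again without overlap. The difference was 1.55 ± 0.39 (log2, SE; limma adjusted p = 0.018), and 1.09 without Sham replicate 1 (adjusted p = 0.17). The second, dim probe was not above background in either Sham rat and was above it in 1 of 3 TBI rats. With most of its readings not above background in both groups, the size of its difference is uncertain. It did not pass the test (limma adjusted p = 0.076).

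The remaining 5 genes did not pass the test after TBI alone. Aif1 encodes IBA1, the calcium-binding protein most used to stain microglia, and read 0.91 and 1.69 in Sham and 1.91, 1.95 and 2.13 after TBI. The groups did not overlap, but the difference of 0.70 ± 0.24 (log2, SE) had an adjusted p of 0.070 by limma, and the second probe gave 0.52 (adjusted p = 0.12). Csf1r, the receptor on whose signal microglia depend for survival, read -2.02 and -1.81 in Sham and -1.38, -1.21 and -1.26 after TBI. Its difference was 0.63 ± 0.21 (log2, SE; limma adjusted p = 0.063), and 0.52 on its second, dim probe (adjusted p = 0.41). Aif1 and Csf1r did pass the test under 3 other scalings and under another background correction. Both also passed with slide as a random block, which cannot part slide from injury, since Sham had a slide of its own. Neither passed with the replicate number as a block (limma adjusted p = 0.12 for Aif1 and 0.061 for Csf1r). The same held with no filter on dim probes (0.14 for each) and with only the groups compared (0.17 and 0.10).

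Trem2, a lipid-sensing receptor of phagocytes, read 0.04 and -1.51 in Sham and -0.26, -0.31 and -0.15 after TBI. The 3 TBI rats lay between the 2 Sham rats, so that the difference of 0.49 (95% interval -0.40 to 1.39) changed sign to -0.28 without Sham replicate 2. P2ry12, the nucleotide receptor by which microglial processes find an injury, also had Sham rats far apart, at -1.03 and -2.54, around TBI values of -2.29, -2.07 and -1.35. Its difference was -0.12 (95% interval -1.16 to 0.92), and it was 0.63 without Sham replicate 1 and 0.07 without TBI replicate 1. Cx3cr1 read -3.85 and -3.98 in Sham and -3.62, -3.75 and -3.77 after TBI. The 2 Sham rats lay within 0.13 of each other, and the difference was 0.20 with a 95% interval of -0.27 to 0.67.

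With all 12 injured rats, treated or not, set against the 2 Sham rats, 7 of the 10 genes were higher and none lower, beside 14.3% of all probes higher and 20.4% in either direction. Relative to Sham, the mean of the 4 injured groups was at least 7.15-fold higher in Msr1, 13.6-fold in Cd14, 3.45-fold in Ptprc, 2.84-fold in Itgam and 2.48-fold in Tyrobp. In these 5 genes 12 of 12 injured rats lay above both Sham rats, as in 12.1% of all probes. The fold for Cd14 was 7.21 without Sham replicate 1 and 25.8 without Sham replicate 2. With normexp the log2 difference was 1.45 in place of 4.62 for Msr1, 3.14 in place of 3.77 for Cd14 and 0.89 in place of 1.5 for Itgam, and each passed the test. Aif1 (0.74, limma adjusted p = 0.023) and Csf1r (0.58, 0.036) passed with smaller differences, and 11 of 12 injured rats lay above both Sham rats in each. The same tally was 11 of 12 in Cx3cr1, which did not pass, 1 of 12 in Trem2 and 0 of 12 in P2ry12. On the second probes it was 12 of 12 for Aif1 and Ptprc and 7 of 12 for Csf1r. Without Sham replicate 1 the count was 4 in place of 7.

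Each drug group set against the same 2 Sham rats gave 8 genes higher with imipramine (19.8% of all probes were higher and 23.4% were called), 7 with Prozac (11.7% and 14.9%) and 4 with Zoloft (4.16% and 5.95%). These 3 comparisons and TBI against Sham share the Sham rats. Msr1, Cd14, Itgam and Tyrobp were called in each of the 4. Csf1r was 0.82 above Sham with imipramine, 0.86 with Prozac and 0.03 with Zoloft, and the last did not pass the test. Cx3cr1 passed only with imipramine (0.69, limma adjusted p = 0.037), a group whose whole array was shifted up by a median of 0.18 from Sham. With quantile normalization the Cx3cr1 difference was 0.38 (adjusted p = 0.20). Trem2 and P2ry12 passed in none of these comparisons. Without Sham replicate 1 the count was 3 with Prozac and 2 with Zoloft, and without TBI+Imipramine replicate 1 or 2 it was 5 with imipramine.

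**Figure D2:**
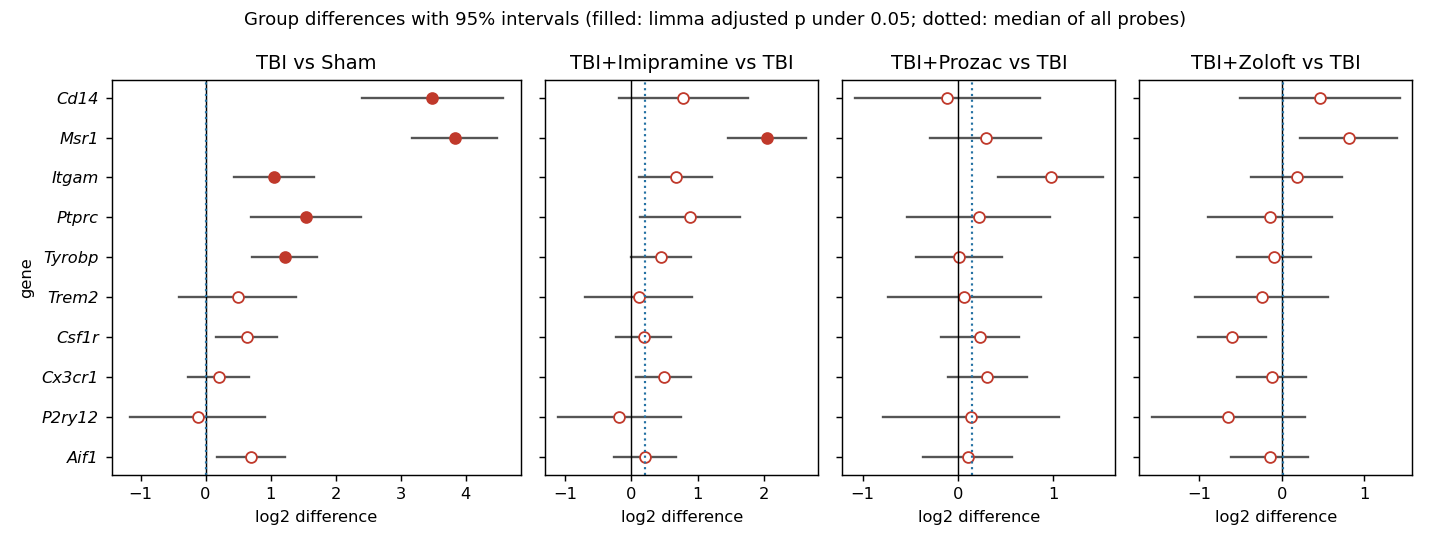
Log2 differences (horizontal axes) of the 10 genes (vertical axis) in TBI against Sham and in each drug group against TBI, with 95% intervals from limma. Filled points passed an adjusted p of 0.05, which were 5 genes after TBI and Msr1 alone after a drug, and the dotted line marks the median of all probes, 0.20 with imipramine, 0.15 with Prozac and 0.01 with Zoloft.

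The second question was whether an antidepressant changed these genes in injured rats. Against TBI, 1 gene was higher with imipramine (Msr1; 2.82% of all probes were higher and 2.85% were called, which was 494 probes here and 50 to 58 under 3 other scalings), and none was called with Prozac (0.00577% of all probes) or with Zoloft (1.38% called and 1.16% higher). At an unadjusted p under 0.05, limma gave 4 genes with imipramine (19.7% of all probes), 1 with Prozac (Itgam; 10.1%) and 2 with Zoloft (Msr1 and Csf1r; 15.2%). The methods' t-test, unadjusted and with its fold limit, gave 1 gene with imipramine (Msr1; 14.1% of all probes), 1 with Prozac (Itgam; 6.31%) and 0 with Zoloft (8.12%). None of the 10 genes was called lower than TBI with any drug. The medians over the 10 genes were 0.46 with imipramine, 0.18 with Prozac and -0.13 with Zoloft, beside 0.20, 0.15 and 0.01 over all probes.

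Msr1 read -2.23, -1.94 and -2.61 in the 3 TBI+Imipramine rats, all above the -3.67 of the highest TBI rat. TBI+Prozac rats read -3.73, -4.23 and -4.07, within the TBI range, and TBI+Zoloft rats read -3.36, -3.53 and -3.61, just above it. The difference of imipramine from TBI was 2.05 ± 0.27 (log2, SE), or 4.13-fold (limma adjusted p = 0.0069), and 1.85 relative to the median shift of all probes. For Zoloft it was 0.81 (95% interval 0.22 to 1.39, adjusted p = 0.16) and for Prozac 0.29 (-0.29 to 0.88, adjusted p = 0.74). The imipramine and TBI arrays lay on different slides. With slide as a fixed block, which rests on the 1 Prozac array beside the TBI arrays, the difference was 2.46 (adjusted p = 0.39), and without TBI+Imipramine replicate 2 it was 1.88 (adjusted p = 0.053). With normexp it was 1.44 (adjusted p = 0.0032).

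In the other 9 genes imipramine and TBI differed by less than the test could call, and 8 of the 9 were on the positive side, as were 83.7% of all probes. Under the 3 other scalings 5 or 6 of the 9 were positive. Ptprc was 0.88 higher (adjusted p = 0.19), with imipramine rats at -1.26, -1.0 and -1.87, all above the highest TBI rat at -2.05. Its second probe, above background in only 1 of the 3 TBI rats, did not pass the test either (adjusted p = 0.19). Tyrobp read 2.84, 3.04 and 2.51 with imipramine, all above the highest TBI rat at 2.43, with a difference of 0.44 (adjusted p = 0.26). Groups did not overlap in 4 of the 10 genes and in 25.8% of all probes. The scaling bears on such small differences, since imipramine arrays had a median shift of 0.20 over all probes.

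With Prozac the largest difference was in Itgam, which read -1.94, -2.06 and -2.13 against -2.86, -2.82 and -3.39 in TBI. The groups did not overlap and the 3 Prozac rats lay within 0.19, but the difference of 0.97 ± 0.25 (log2, SE) had an adjusted p of 0.27 by limma. Of the 10 genes, 1 did not overlap between Prozac and TBI (15.1% of all probes) and 2 between Zoloft and TBI (15.3%). Csf1r read -1.67, -1.64 and -2.36 with Zoloft, each below the lowest TBI rat at -1.38, a difference of -0.61 (95% interval -1.02 to -0.19, adjusted p = 0.14). P2ry12 read -1.97, -2.20 and -3.50 with Zoloft, with a difference of -0.65 (95% interval -1.58 to 0.28, adjusted p = 0.52), and the spread between the Zoloft rats was 1.54.

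The 3 drug groups were then compared with each other at the same dose and time, in 3 pairs and by 1 moderated F test per gene. By the F test 2 of the 10 genes differed among the drugs, Msr1 (limma adjusted p = 0.018) and Csf1r (0.045), beside 3.18% of all probes. Both calls were lost with quantile normalization (adjusted p = 0.055 and 0.096), with the 75th percentile over all probes (0.060 and 0.096), with the series table and with no filter on dim probes. Of the 3 kept lymphocyte genes, 2 also differed among the drugs, Cd3e (0.041) and Cd8a (0.050), the latter kept only through the imipramine group. Adjusted p-values in the pairs are over all probes within each pair. In imipramine against Zoloft, whose 6 arrays shared a slide, Msr1 was 1.24 ± 0.27 higher (log2, SE; adjusted p = 0.028) and Csf1r 0.79 ± 0.19 higher (0.038), beside 5.25% of all probes higher and 5.29% called (917 probes, and 78 to 137 under the 3 other scalings). In the same pair 2 of 3 lymphocyte genes were higher with imipramine. Cd3e, not above background with Zoloft, was at least 2.77-fold higher (adjusted p = 0.030). Cd8a read 3.29 higher on the log2 scale (0.026), but only 1 of the 3 Zoloft rats was above background, so the size is uncertain. Its probe passed the filter for dim probes only through the imipramine group, so its calls between drugs partly follow from that filter and give no support. The summed level of the 3 lymphocyte genes, in units of the array's 75th percentile, was 0.113 to 0.170 with imipramine, 0.0769 to 0.112 with Prozac and 0.0561 to 0.0625 with Zoloft. The part of lymphocytes in the Msr1 and Csf1r differences was not tested. Also higher in this pair were 4 of 19 genes of phagocytosis and activation (Axl, Cd63, Cybb and Gpnmb) and 1 of 5 endothelial genes (Emcn). So were the partner genes Ly96 (0.89, limma adjusted p = 0.029) and Syk (0.78, 0.033) and the macrophage gene Arg1 (1.05, 0.039). In Prozac against Zoloft, Csf1r was 0.84 ± 0.19 higher (adjusted p = 0.038), beside 3.61% of all probes higher and 3.69% called. In imipramine against Prozac none of the 10 was called and 0.00577% of all probes were, with Msr1 at a difference of 1.75 (95% interval 1.17 to 2.34, adjusted p = 0.23). At an unadjusted p under 0.05 limma gave 1 gene in this pair, Msr1 (6.91% of all probes), and the methods' t-test with its fold limit 2 (5.73%).

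For Csf1r, imipramine rats read -0.99, -0.96 and -1.34 and Prozac rats -1.04, -1.22 and -0.89, all above the highest Zoloft rat at -1.64. Its second, dim probe was also lowest with Zoloft, but imipramine lay above Prozac there (means of -5.40 and -5.55), unlike on the main probe. This second probe differed by 1.18 for imipramine against Zoloft (limma adjusted p = 0.068) and by 1.04 for Prozac against Zoloft (0.12). It was above background in only 1 of the 3 Zoloft rats. Both calls of imipramine against Zoloft and that of Prozac against Zoloft were lost under each of 3 other scalings of the arrays. Under quantile normalization Msr1 was 1.01 higher with imipramine than with Zoloft (adjusted p = 0.10), and Csf1r was 0.59 higher (0.10). Both calls of imipramine against Zoloft were also lost without TBI+Imipramine replicate 1 or 2 and without TBI+Zoloft replicate 2 or 3. Without TBI+Zoloft replicate 3, Msr1 was 1.18 higher (adjusted p = 0.061) and Csf1r 0.56 higher (0.071).

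**Figure D3:**
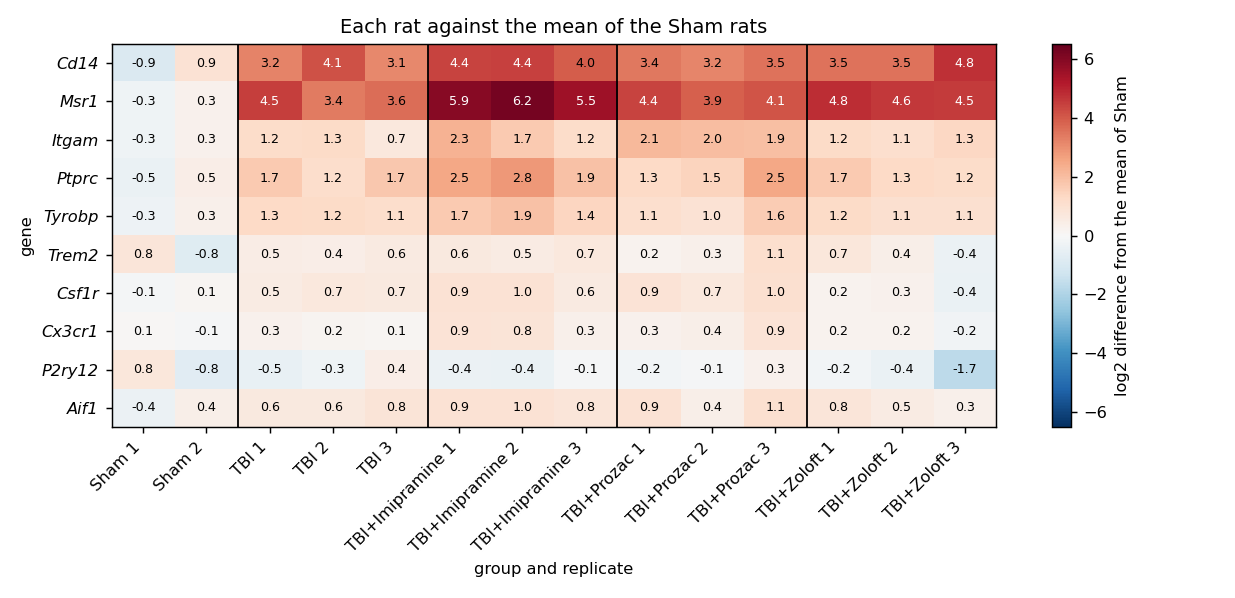
Log2 difference of each of the 14 rats from the mean of the 2 Sham rats (colour and printed value) for the 10 genes (rows), with lines between groups. Msr1 and Cd14 are high in every injured rat, and TBI+Zoloft replicate 3 has the lowest P2ry12 and Csf1r and the highest Cd14 of the injured rats.

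The genes did not move as 1 block from rat to rat. Among the 12 injured rats, TBI+Zoloft replicate 3 was the lowest in Aif1, Trem2, Csf1r, P2ry12 and Cx3cr1 and at the same time the highest in Cd14 (1.14, against a median of -0.09). TBI+Imipramine replicate 2 was the highest in Msr1, Tyrobp and Ptprc, and TBI+Imipramine replicate 1 in Itgam and Cx3cr1. TBI+Prozac replicate 3 was the highest in Aif1, Trem2 and Csf1r. The 2 imipramine rats also had the most probes above background of all arrays (18066 and 18196), and the part of this in their ranks was not tested. TBI+Zoloft replicate 3 had 16962 probes above background, within the range of the others. Over the 12 injured rats the spread was widest in Msr1 (from -4.74 to -1.94) and narrowest in Aif1 (from 1.63 to 2.35).

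The genes whose pattern over the 12 injured rats was most like that of a member were found among all named probes that were above background on every array. The likeness is Pearson's r over 12 rats, given as a description, since the highest over all these probes is high by selection and the rats fall in 4 treatment groups on 2 slides. For Tyrobp they were Cyba (r = 0.97), a subunit of the NADPH oxidase of phagocytes, and Fcer1g (0.97), another adaptor of immune receptors. For Ptprc they were Ncf1 (0.97), a cytosolic subunit of the same oxidase, and RT1-Da (0.97), a class II antigen-presenting molecule. For Aif1 they were Abi3 (0.94) and Hirip3 (0.91), and for Trem2 Tifab (0.93) and Hsd17b1 (0.91). P2ry12 was nearest to Dbp (0.97), a clock-controlled transcription factor, and Tril (0.96), a helper of Toll-like receptors. Csf1r was nearest to Colgalt1 (0.98) and Snd1 (0.98), Cx3cr1 to Prcp (0.94) and Rnaset2 (0.94), Cd14 to Tmbim6 (0.95) and Rarg (0.95), Itgam to Ivd (0.95) and Usp48 (0.94), and Msr1 to Hps1 (0.85) and Vav2 (0.84).

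Further lists of genes place the 10 in their pathway and among other cells. Of 12 kept genes for partners and ligands of the 10, 7 were higher after TBI and none lower, beside 8.3% of all probes higher and 8.32% lower. Hcst, the sister adaptor of Tyrobp, was 1.49 higher (log2; limma adjusted p = 0.0025) and Spi1, the gene of PU.1, 1.26 higher (0.0062). Tlr4, the partner of Cd14, was not above background in Sham and was at least 2.62-fold higher (adjusted p = 0.0071). The ligands did not pass: Csf1 was at 0.55 (adjusted p = 0.12), Il34 at -0.19 (0.40) and the fractalkine gene Cx3cl1 at -0.44 (0.26). Itgb2, the beta chain that pairs with the product of Itgam, was 0.79 higher (0.037). After imipramine, Syk, the kinase recruited by Tyrobp, was 0.77 above TBI (adjusted p = 0.044), the only gene of the 12 lists to be called for any drug against TBI by the probe that stands for it. The 2 groups lay on different slides, with a median shift of 0.20 over all probes. The calls of this comparison fell from 494 probes to 50 to 58 under 3 other scalings. A second, dimmer probe of the scavenger receptor gene Cd36, not above background in TBI, was at least 1.46-fold higher with imipramine (adjusted p = 0.015), while its brighter probe was at 2.09 (log2; 0.11). The dimmer probe passed the filter for dim probes only through the imipramine group, so its call partly follows from that filter and gives no support.

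Of 12 kept genes of homeostatic microglia, 1 was higher after TBI and none lower, and the median was -0.09. This count was near the share of all probes that were higher, 8.3%. The called gene was P2ry6, a nucleotide receptor that triggers phagocytosis, which was 1.22 higher (limma adjusted p = 0.0069). Tmem119, a marker that separates microglia from other macrophages, was at -0.72 (adjusted p = 0.28) and Gpr34 at 0.09 (0.94).

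Of 19 kept genes of phagocytosis and activation, 13 were higher after TBI and none lower, with a median of 1.67. Over all probes 8.3% were higher and 8.32% lower. Spp1 (osteopontin) was 5.38 higher (limma adjusted p = 0.0050), with 1 of the 2 Sham rats above background, and 3.24 without Sham replicate 1 or 7.52 without Sham replicate 2. Lgals3 (galectin-3) was 4.24 higher (adjusted p = 4.3e-05), from a Sham range of -3.04 to -2.14 to a TBI range of 1.40 to 1.82. Fcgr3a, a receptor for antibody-coated particles, was 2.73 higher (0.00064). Of 12 kept genes of blood-derived and perivascular macrophages, 7 were higher and none lower, with a median of 1.69. A probe of Ccr1 passed the test (limma adjusted p = 0.043) but was not above background in Sham. Its TBI mean of -6.40 lay just under the dimmest signal that counted as above background in Sham (-6.36), so no least fold can be given for it. Cd44 was 2.77 higher (adjusted p = 0.00020), Fn1 1.81 higher (0.015), and F13a1, dim in Sham, at least 2.56-fold higher (0.0020). Ccr2, Mrc1 and Marco had no probe above background throughout any group.

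**Figure D4:**
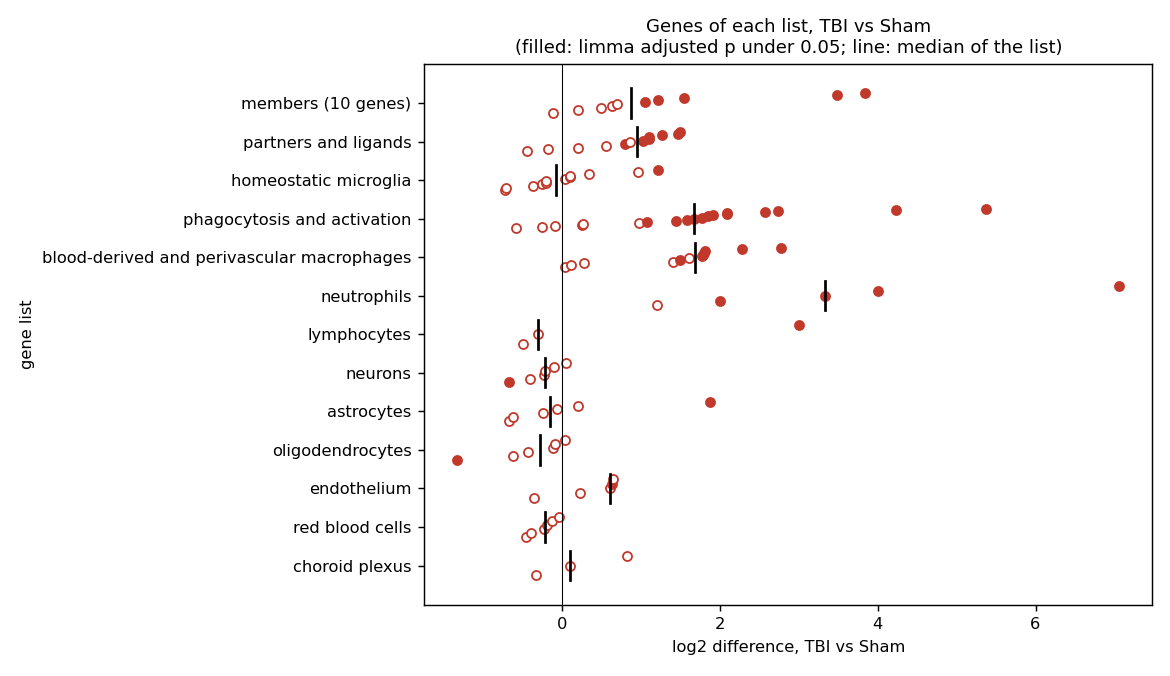
Log2 difference of TBI against Sham (horizontal axis) for every kept gene of the 10 microglia and macrophage genes and of 12 other lists (vertical axis), 1 point per gene, filled where the limma adjusted p was under 0.05. The vertical line is the median of the list, 0.87 for the 10 genes, -0.09 for homeostatic microglia and 1.67 for phagocytosis and activation.

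Markers of other cells were then set beside the 10 genes, with 8.3% of all probes higher and 8.32% lower in TBI against Sham. Of 5 kept neutrophil genes 4 were higher in TBI rats, and the median of the 5 was 3.33. Lcn2 was 7.06 higher, S100a9 4.0 higher and S100a8 3.33 higher (limma adjusted p = 0.00059, 0.0014 and 0.0089), with only 1 of 2 Sham rats above background for Lcn2 and for S100a8. Lcn2 was 4.97 higher without Sham replicate 1 and 9.16 without Sham replicate 2, and the call of S100a8 was lost without either (adjusted p = 0.050 and 0.065). The summed linear level of the 5 neutrophil genes, in units of the array's 75th percentile, was 0.133 to 0.394 in Sham, 4.13 to 15.9 in TBI, 9.94 to 11.8 with imipramine, 9.23 to 12.6 with Prozac and 10.7 to 29.8 with Zoloft. Among the 3 named genes, the signal of Lcn2 made up the largest part of this sum in injured rats. In TBI rats Lcn2 read 1.85 to 3.71 (log2), S100a9 -2.06 to 0.65 and S100a8 -2.95 to 0.15. With Zoloft they read 3.13 to 4.77, -0.43 to -0.24 and -0.92 to 0.61. The sum therefore follows Lcn2 more than S100a9 or S100a8 and is not a measure of neutrophil number. Elane, Camp, Mmp8, Cxcr2 and Ngp had no probe above background throughout any group. Neutrophils carry Itgam, Cd14, Tyrobp and Ptprc, and the part of these cells in the injury differences was not tested. Of 3 kept lymphocyte genes, Cd8a was called higher (limma adjusted p = 0.020), while 8 others with a probe were not kept. Cd8a was above background in 2 of 3 TBI rats and in neither Sham rat, so the size is uncertain. Its probe passed the filter for dim probes only through the imipramine group.

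In tissue cells, 1 of 6 astrocyte genes was higher (Gfap, 1.88, limma adjusted p = 0.014), 1 of 6 neuronal genes lower (Syt1, -0.67), 1 of 6 oligodendrocyte genes lower (Mobp, -1.33) and 1 of 5 endothelial genes higher (Cldn5, 0.63). Of all probes 16.6% were called, so each of these counts was near the share over all probes. None of 6 red blood cell genes and none of 3 choroid plexus genes was called. The summed level of the choroid plexus genes ran from 0.592 to 29.2 in Sham, from 0.669 to 28.7 in TBI, from 1.79 to 105 with imipramine, from 0.204 to 87.8 with Prozac and from 1.77 to 101 with Zoloft. The median of that list against TBI was 2.93 with imipramine, -0.01 with Prozac and 2.26 with Zoloft, with none of its genes called, and its part in the Msr1 difference was not tested.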

How the data were processed

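Whole hippocampus of 14 rats was profiled on single-colour Agilent arrays, whose names of genes come from the array's design and were updated through RefSeq. The authors extracted intensity values with Agilent Feature Extraction 11.5.1.1 (per the file headers), and the deposited files hold background-subtracted, spatially detrended intensity and 0 or 1 flags as a score per spot. The series table of deposited intensity values, scaled by the authors to a constant per array, was used as an alternative. Here log2 of the deposited processed signal was taken, minus that of the array's 75th percentile of probes above background. Control and outlier-flagged spots were left out, and spots of a probe were averaged. Probes above background in all arrays of at least 1 group were kept, as in the study's methods. All 5 groups were fitted together with limma 3.58.1 in R 4.3.3 (lmFit and eBayes), and p-values were adjusted by Benjamini-Hochberg over 17322 probes at 0.05. Fold changes are 2 to the power of the log2 difference.

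The fit was tested on simulated data. The number of arrays limits the precision: 2 Sham and 3 rats in each other group, where the methods state 3 in each. The labels number the rats, but nothing more says how far replicates are independent. The genes and the 12 other lists were chosen with earlier results of these data known. Of each other list, at most the 3 genes with the largest difference among those called in TBI vs Sham (or in a drug vs TBI) were to be named. Csf1, Il34, Cx3cl1, Itgb2, Tmem119, Gpr34, the second probe of Cd36 and the genes of other lists called between drugs were named after their values were seen. Alternatives were another background correction (normexp with offset 50, on median signals, since the files used hold no mean signal), other scalings and filters, slide and replicate blocks, the methods' t-test and leaving out each rat. No 2 arrays held identical values. Same-numbered rats of different groups did not deviate together (r over 0.1 in 2 of 26 pairs), so replicate numbers were not taken as pairs. Genome coordinates are of GRCr8 and serve only for promoters, since the array headers name an older build. The 14 miRNA arrays were not used here.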

Additional observations from a re-analysis of the deposited data

Results flagged for a closer look

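Msr1 and Csf1r were picked out because the effect of injury with drug differed among the 3 drug groups, by a test of the difference itself (limma's moderated F test, adjusted over all probes). For Msr1 the adjusted p was 0.0184, with group means of -2.26 for imipramine, -4.01 for Prozac and -3.50 for Zoloft. For Csf1r it was 0.0452, with means of -1.10, -1.05 and -1.89. Both were lost with quantile normalization (0.055 and 0.096). No check for a sample standing apart within a group was run, since groups of 2 or 3 are too small for that check.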

How the results depend on the processing

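Among probes above background on all 14 arrays, Msr1 was not tested. Msr1 and Cd14 in TBI against Sham passed under each alternative that tested them, with a single exception. That was the methods' t-test after Benjamini-Hochberg, which called none of the genes there in place of 5. That setting called 1 gene in place of 8 for imipramine against Sham and 0 in place of 7 for Prozac against Sham, 4 for Zoloft against Sham, 1 for imipramine against TBI, 2 for imipramine against Zoloft and 1 for Prozac against Zoloft. Without adjustment and with its fold limit, the t-test called 1 gene for Prozac against TBI (6.31% of all probes), 2 for imipramine against Prozac (5.73%), 4 for imipramine against Zoloft (17.6%) and 3 for Prozac against Zoloft (15.0%). Imipramine against TBI gave 0 with slide as a fixed block and 0 among probes above background on all 14 arrays, where Msr1 was not tested. Zoloft against Sham gave 1 when only the groups compared were fitted.

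Imipramine against Zoloft gave 0 genes with quantile normalization, the 75th percentile over all probes, the series table, no filter on dim probes and only the groups compared, and 1 with normexp or among probes above background on all 14 arrays. Prozac against Zoloft gave 0 under all of these except the last, and 0 with slide as a fixed block and within 1 slide, a setting added after seeing the data. The F test among drugs, 2 genes in the main setting, gave 0 with quantile normalization, the 75th percentile over all probes, the series table and no filter, and 1 with normexp, probes above background on all 14 arrays, slide as a fixed block, only the groups compared and within 1 slide. The cause was not tested.

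With the replicate number as a block, which the pairing check did not bear out (r from -0.23 to 0.23, 3 arrays most like their own number), imipramine against Zoloft and Prozac against Zoloft gave 0 genes and the F test 1. The other 9 counts moved by less than 1.5 times.

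On leaving out each rat, the number of genes called ran from 2 to 6 for TBI against Sham, 5 to 8 for imipramine, 3 to 7 for Prozac and 2 to 5 for Zoloft against Sham, and 4 to 7 for all injured rats. It ran from 0 to 1 for imipramine against TBI, stayed at 0 for Prozac and Zoloft against TBI and imipramine against Prozac, and ran from 0 to 3 for imipramine against Zoloft, 0 to 1 for Prozac against Zoloft and 0 to 2 for the F test. The F test gave 0 without TBI+Imipramine replicate 1 or 2 or TBI+Zoloft replicate 2. Csf1r in Prozac against Zoloft was lost without any Prozac rat, TBI+Imipramine replicate 1 or 2, TBI+Zoloft replicate 2 or 3 or TBI replicate 2 (0.60 to 0.96 over all rats left out), and Csf1r in imipramine against Zoloft also without TBI replicate 2. Signs turned in TBI against Sham for Trem2, which ran from -0.28 without Sham replicate 2 to 1.27 without Sham replicate 1, and for P2ry12, which ran from -0.87 without Sham replicate 2 to 0.63 without Sham replicate 1 and was 0.07 without TBI replicate 1. Where 1 Sham rat was left, it was taken to vary like the other groups.

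Scaling moved the balance of calls over all probes: of the probes called for imipramine against TBI 99.0% were higher, and 88.0% with quantile normalization. For imipramine against Sham it was 84.6% and 48.9%, for Prozac 78.8% and 51.8%, for Zoloft 69.8% and 54.1%, for all injured rats 69.9% and 48.2%, and for Zoloft against TBI 84.1% and 58.4%. For TBI against Sham it was 49.9%, and 37.8% with normexp. Dim signals limit what can be said of Msr1 and the second probes of Csf1r and Ptprc in Sham.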
